A study of Mus musculus with 18 samples.

Results

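Cholesterol is built from acetyl-CoA by a chain of enzymes whose genes share a transcriptional switch, and 26 genes of that chain and switch are described here in T23 cells, a mouse prostate adenocarcinoma line. The genes were taken from a list of symbols by function, not by their values, and all 26 were found among the 55487 genes of the deposited count files. They comprise 8 genes of the mevalonate arm, 12 of the arm from squalene to sterol, 4 of the control of SREBP2 and 2 of sterol transport and storage. Each was measured in 18 RNA-seq libraries, 3 in each of 6 groups.

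The groups were T23 cells grown alone, T23 cells with wild-type fibroblasts (named FIBROB6 in the sample titles), T23 cells with SPARC-deficient fibroblasts (Fibro SparcKO), T23 cells given enzalutamide (ENZA), T23 cells with fibroblasts and enzalutamide, and T23 cells with fibroblasts, enzalutamide and isoliquiritigenin (ISO). Enzalutamide is an antiandrogen drug, isoliquiritigenin is a plant chalcone, and Sparc encodes a secreted matrix glycoprotein. The loss of Sparc was in the fibroblasts, not in the T23 cells. Isoliquiritigenin was given only together with enzalutamide and fibroblasts, and no group had it alone. Sample descriptions of both co-cultures with enzalutamide speak of human fibroblasts, while their titles carry the name FIBROB6 of the wild-type co-culture, so the fibroblasts of those groups cannot be told from the labels. Doses, times and how T23 cells were separated from fibroblasts are not given in the sources used here, and the labels do not say that replicates were separate cultures, so p-values measure the spread between these libraries, which may be technical.

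SREBP2, encoded by Srebf2, is made as a membrane protein of the endoplasmic reticulum. When sterols are scarce its escort SCAP carries it to the Golgi, where proteases release the transcription factor domain that switches on the genes of sterol synthesis and uptake. When sterols are plentiful the proteins INSIG1 and INSIG2 hold SCAP in the endoplasmic reticulum. Insig1 is itself a target of SREBP2, so its transcript is widely read as part of the response. Prostate cells make and use much cholesterol, which is also the substrate of steroid hormones.

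The promoters of the genes are shown first, because the list was assembled around sterol synthesis and 1 transcription factor, SREBP2. Windows of 250 bases before the RefSeq start (GRCm38.p6) were matched by symbol for 22 of the 26 genes, and not for Fdps, Fdft1, Sqle and Stard4. The letters CCAAT, the core of the site for the factor NF-Y, stood on either strand in 18 of the 22 windows (81.8%), against 34.5% of 27025 windows of all genes. GGGCGG, the core of the site for SP1, stood in 17 of 22 (77.3%), against 33.0%. TCACNCCAC, a form of the sterol regulatory element, stood in 1 of 22, that of Hmgcs1, against 1.03% of all windows. No motif overlapped another in the printed stretches. Each match is a match of letters in this window only, and the letters of the sterol regulatory element vary between genes. The stretches below belong to 5 of the 6 members with the smallest p between the co-culture with both agents and the wild-type co-culture. The other, Msmo1, had no exon-free stretch of 150 bases. They are printed 5′ to 3′ on the strand of the gene, without bases of annotated exons, with matches to CCAAT and TCACNCCAC on either strand in capitals.
Insig1, chr5:28071162-28071362, plus strand: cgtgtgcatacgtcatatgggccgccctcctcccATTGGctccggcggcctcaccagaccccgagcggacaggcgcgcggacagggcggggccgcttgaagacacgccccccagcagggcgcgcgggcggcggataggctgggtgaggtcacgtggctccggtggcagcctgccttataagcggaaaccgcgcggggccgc
Mvd, chr8:122443423-122443672, minus strand: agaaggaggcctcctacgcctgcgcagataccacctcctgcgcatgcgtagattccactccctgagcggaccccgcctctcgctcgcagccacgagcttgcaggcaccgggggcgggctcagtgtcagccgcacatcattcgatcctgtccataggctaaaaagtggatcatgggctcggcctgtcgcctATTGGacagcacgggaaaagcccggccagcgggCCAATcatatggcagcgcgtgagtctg
Hsd17b7, chr1:169969242-169969408, minus strand: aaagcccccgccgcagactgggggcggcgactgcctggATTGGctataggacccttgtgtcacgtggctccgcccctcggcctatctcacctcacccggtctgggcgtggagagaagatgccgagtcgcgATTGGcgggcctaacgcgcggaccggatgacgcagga
Dhcr7, chr7:143822917-143823144, plus strand: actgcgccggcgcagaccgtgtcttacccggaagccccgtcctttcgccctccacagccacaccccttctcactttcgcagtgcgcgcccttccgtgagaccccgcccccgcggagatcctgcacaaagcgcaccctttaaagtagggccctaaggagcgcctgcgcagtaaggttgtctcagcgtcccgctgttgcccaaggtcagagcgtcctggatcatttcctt
Hmgcs1, chr13:119690101-119690350, plus strand: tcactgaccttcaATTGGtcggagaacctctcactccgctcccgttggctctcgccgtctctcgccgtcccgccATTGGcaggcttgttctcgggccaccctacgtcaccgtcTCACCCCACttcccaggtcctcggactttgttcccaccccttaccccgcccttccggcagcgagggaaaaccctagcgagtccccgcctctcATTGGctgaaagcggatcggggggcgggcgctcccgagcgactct
Hmgcs1 carried 3 reverse copies of CCAAT beside its match to the sterol regulatory element, which lay 137 to 129 bases before the start. In Mvd 1 copy lay on each strand. Hsd17b7 held 2 reverse copies in the printed stretch, Insig1 held 1, and Dhcr7 held no match to these 2 motifs.

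Library totals ran from 16.1 to 26.7 M counts, and the smallest count of any of the 26 genes in any library was 58, so each was well above the limit of 3 counts that a count of 0 allows (0.112 to 0.186 CPM). Together they took 0.221 to 0.382% of the counts. The line carried few epithelial transcripts: of 10 luminal markers Pbsn was at 0 in all 18 libraries and Epcam, Krt8, Krt18 and Cdh1 stayed under 1 CPM. In T23 cells alone 9 of 10 fibroblast and mesenchymal markers reached 1 CPM, and their summed level there (39900 to 41320 CPM) overlapped that of the wild-type co-culture (39390 to 41160), so fibroblast RNA in a library could not be measured by them. Lum was the marker near 0, at up to 0.148 CPM. In bulk libraries fewer cells of a type and less RNA per cell cannot be told apart. One library stood apart: 26.4% of the counts of replicate 2 of enzalutamide without fibroblasts fell on 1 ribosomal RNA gene. The share of mitochondrial transcripts was 0.824 to 1.11% in T23 cells alone, 0.853 to 1.34% with wild-type and 0.944 to 1.68% with SPARC-deficient fibroblasts, 1.88 to 4.06% with enzalutamide, 1.55 to 2.71% with enzalutamide and fibroblasts and 2.80 to 3.77% with isoliquiritigenin. Titles end in a running index that starts anew after 16. Its second run, called the second numbering series here, holds every isoliquiritigenin library and, from the co-culture with enzalutamide, replicates 2 and 3.

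Levels are compared between libraries as CPM (counts per 1000000 counts, with library sizes scaled by TMM), and between genes as CPM per kb of exon. In T23 cells alone the most abundant members per kb were Cyp51, the demethylase that removes a methyl group of lanosterol, at 86.5 CPM per kb ± 2.59 (SD, n = 3), Srebf2 at 78.8 ± 2.25 and Sqle, the squalene epoxidase gene, at 58.6 ± 0.751. Next came Msmo1, the sterol methyl oxidase gene, at 35.8 ± 1.21. Msmo1 and Acat2, which encodes the thiolase that condenses acetyl-CoA, at 34.3 ± 1.03, did not differ beyond their spread, nor did Insig2 (24.7 ± 0.735), Nsdhl (24.2 ± 1.23) and Insig1 (23.7 ± 1.25). At the low end stood Fdps, the farnesyl diphosphate synthase gene (4.11 ± 0.0766), Idi1, the isopentenyl diphosphate isomerase gene (2.30 ± 0.216), and Tm7sf2, a sterol reductase gene (1.39 ± 0.190). Fdps shares 26.7% of its exon bases with Gm43738 on the same strand, a gene with 0 counts over all 18 libraries. Whether reads in the shared bases were left out of the counts was not tested, so the level of Fdps per kb is uncertain. Srebf2 was thus among the most abundant transcripts of the set, and both arms of the pathway held genes at high and at low level.

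**Figure D1:**
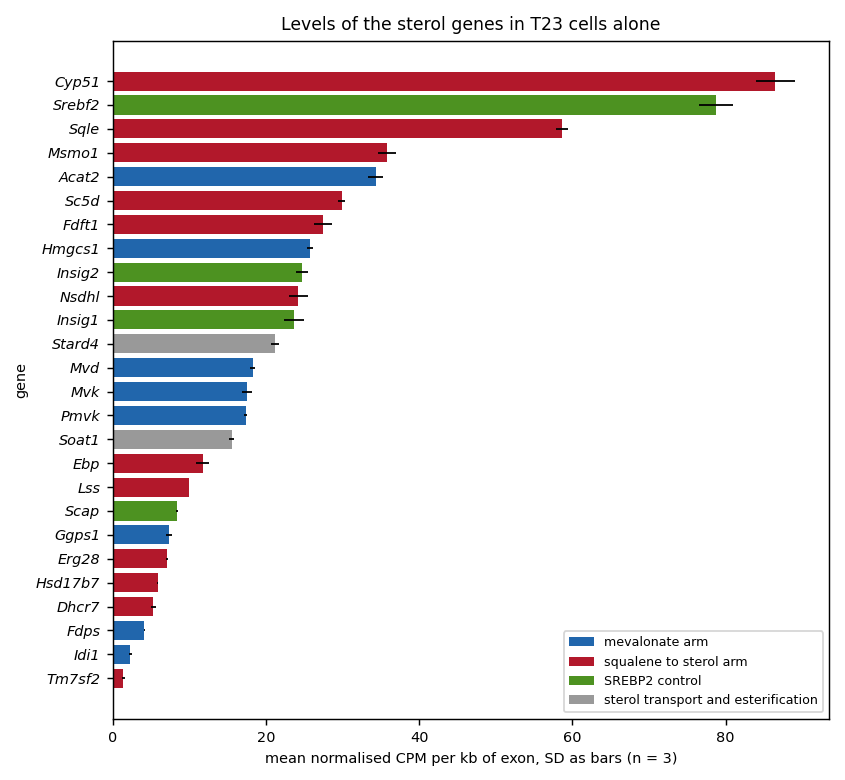
Bars give the mean level of each of the 26 genes in T23 cells alone, in normalised CPM per kb of exon, with the SD over 3 libraries, coloured by role. Cyp51 and Srebf2 lie near 80 and Tm7sf2 lies at 1.39.

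Across the 6 groups the isoliquiritigenin co-culture had the highest mean for 21 of the 26 genes. In 15 genes all 3 of its libraries lay outside the other 15, where this held for 20.1% of 13600 tested genes. In 14 of them the 3 libraries lay above, as in 1363 of all tested genes, and in Insig2 they lay below, as in 1368. The summed level of the 26 genes was 2866, 2939 and 2962 CPM in T23 cells alone, 2912, 2915 and 2893 with wild-type fibroblasts, and 3151, 3076 and 3199 with SPARC-deficient fibroblasts. Enzalutamide libraries held 3273, 3228 and 3109 CPM without fibroblasts and 3051, 3181 and 3126 with them. With isoliquiritigenin the sums were 3661, 3607 and 3691 CPM, above each of the other 15. T23 cells alone and the wild-type co-culture overlapped at the bottom, and the SPARC-deficient co-culture and both enzalutamide groups overlapped in between. The group mean was lowest in T23 cells alone for 10 genes and in the wild-type co-culture for 9.

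**Figure D2:**
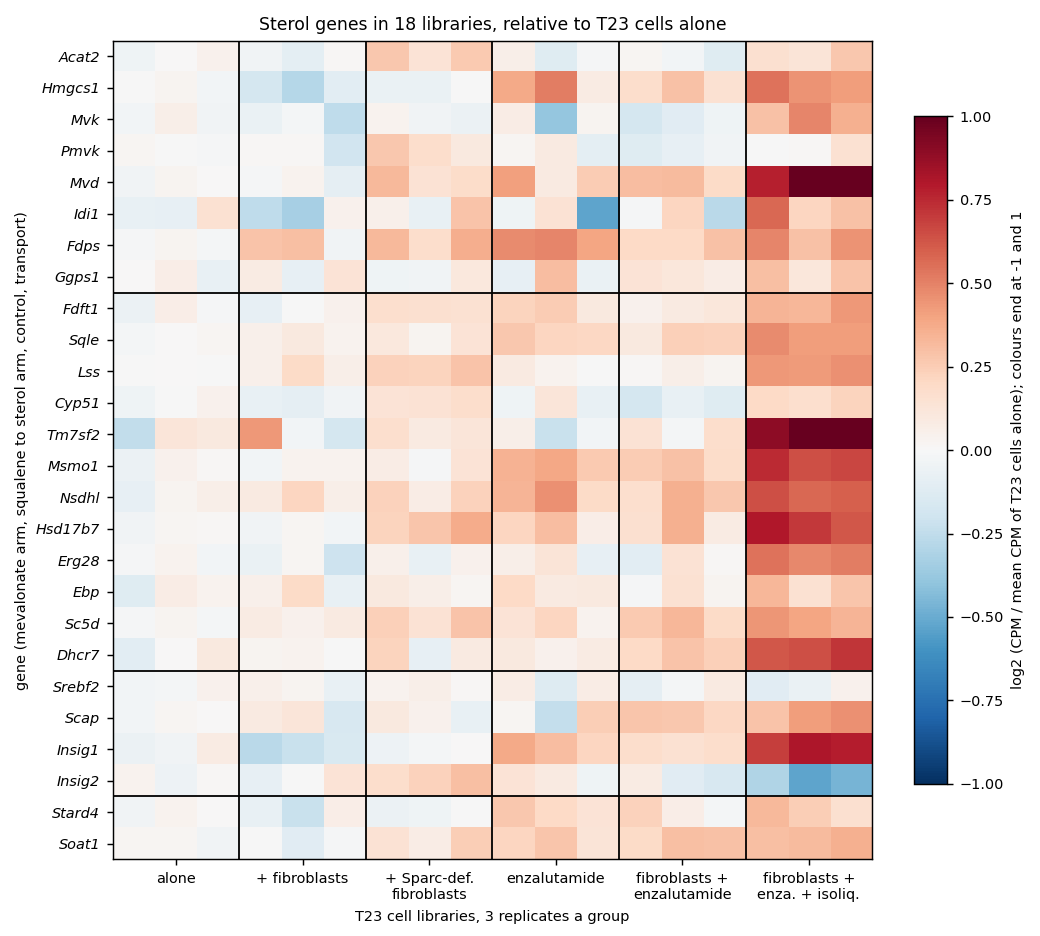
Each row is a gene and each column a library, coloured by the log2 level against the mean of T23 cells alone, with colours ending at -1 and 1. The 3 isoliquiritigenin columns at the right are above T23 cells alone for most rows, while Insig2 is below and Srebf2 is near 0.

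Isoliquiritigenin, added to enzalutamide and fibroblasts, came with higher transcripts of 14 of the 20 pathway enzymes and cofactors, and with opposite differences of the paired regulators Insig1 and Insig2. This comparison asks what the chalcone adds in the same co-culture. Of the 26 genes 15 rose and 1 fell, or 61.5%, where 26.5% of all tested genes were called (12.9% higher, 13.6% lower). The median log2 difference of the 26 genes was 0.27, beside 0.00 over all tested genes. Calls are adjusted p under 0.05 in edgeR's quasi-likelihood test. The sizes were modest, from 1.17-fold to 1.97-fold.

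Insig1 (ENSMUSG00000045294, chromosome 5, 28071363 to 28078662) had 82.5, 81.3 and 82.7 CPM with enzalutamide and fibroblasts and 118, 128 and 126 CPM with isoliquiritigenin added. The groups were far apart, with a 1.51-fold rise (log2 0.59 ± 0.05 SE, adjusted p 1.73e-08). Insig2 (ENSMUSG00000003721, chromosome 1, 121304353 to 121332589) had 91.0, 79.3 and 76.7 CPM without the chalcone and 69.7, 59.5 and 62.3 CPM with it. All 3 treated libraries were below all 3 others, a 1.29-fold fall (log2 -0.37 ± 0.07, adjusted p 0.000376). The transcript of SREBP2 itself did not follow either: Srebf2 (ENSMUSG00000022463, chromosome 15, 82147181 to 82205379) had 532, 558 and 602 CPM without and 523, 542 and 583 CPM with isoliquiritigenin. Its groups overlapped (log2 -0.04 ± 0.06, adjusted p 0.704), and over all 18 libraries it stayed between 517 and 602 CPM. The escort gene Scap had 75.6, 75.0 and 71.8 CPM against 75.9, 83.1 and 85.7 CPM, a difference that did not pass (log2 0.14 ± 0.08, adjusted p 0.247).

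**Figure D3:**
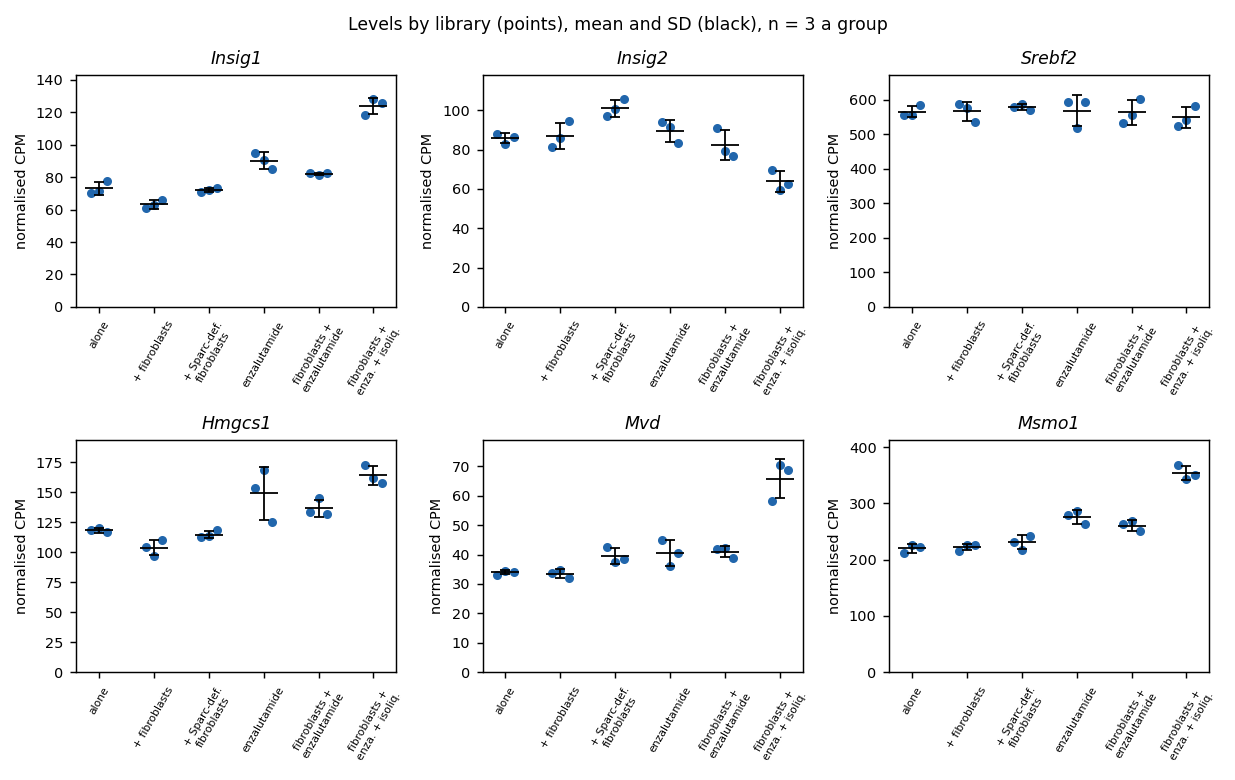
Points are single libraries and black bars the mean and SD of 3 libraries, in normalised CPM, for 3 genes of SREBP2 control (top) and 3 enzymes (bottom) in the 6 groups. Insig1, Mvd and Msmo1 are highest with isoliquiritigenin, Insig2 is lowest there, and Srebf2 shows no step.

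In the mevalonate arm 4 of 8 genes rose. Mvd (ENSMUSG00000006517, chromosome 8, 122433601 to 122443422), the last step before the isoprenoid units, had 41.9, 42.3 and 38.8 CPM without isoliquiritigenin and 58.1, 70.5 and 68.6 CPM with it, a 1.60-fold rise (log2 0.68 ± 0.08, adjusted p 5.63e-07). Mvk, the mevalonate kinase gene, went from 41.4, 43.5 and 45.5 CPM to 57.4, 65.8 and 60.02 CPM (log2 0.49 ± 0.09, adjusted p 0.000136). In both genes the groups did not overlap. The entry genes rose less: Hmgcs1, the HMG-CoA synthase gene, by log2 0.26 ± 0.07 (adjusted p 0.00845) and Acat2 by 0.23 ± 0.06 (adjusted p 0.00387). Pmvk, the kinase between Mvk and Mvd, was at log2 0.14 ± 0.07 (adjusted p 0.175), Idi1 at 0.39 ± 0.15 (0.0555), Fdps at 0.18 ± 0.08 (0.107) and Ggps1, which makes the geranylgeranyl donor of protein prenylation, at 0.13 ± 0.08 (0.285). None of these 4 passed.

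From squalene to sterol 10 of 12 genes rose. The largest difference of the 26 was that of Tm7sf2 (ENSMUSG00000024799, chromosome 19, 6062821 to 6068373), which also had the lowest level: it had 6.77, 6.05 and 6.93 CPM without and 11.4, 15.5 and 12.2 CPM with isoliquiritigenin, a 1.97-fold rise (log2 0.98 ± 0.14, adjusted p 8.28e-06). Msmo1 (ENSMUSG00000031604, chromosome 8, 64718139 to 64733792) had 263, 269 and 250 CPM against 369, 344 and 350 CPM (log2 0.44 ± 0.05, adjusted p 7.93e-07). Hsd17b7 (ENSMUSG00000026675, chromosome 1, 169949535 to 169969241), whose enzyme reduces a keto group in the same demethylation steps, had 33.4, 38.1 and 31.5 CPM against 51.8, 48.6 and 45.8 CPM (log2 0.51 ± 0.07, adjusted p 1.29e-05). Erg28, thought to hold the demethylation enzymes together, had 27.7, 33.0 and 30.1 CPM against 43.5, 41.6 and 42.5 CPM (log2 0.49 ± 0.07, adjusted p 1.69e-05). Nsdhl, the dehydrogenase of that complex, had 77.6, 88.5 and 83.3 CPM against 108, 103 and 105 CPM (log2 0.34 ± 0.07, adjusted p 0.000389). Thus all 4 genes of the removal of methyl groups at carbon 4 rose, with no overlap between groups. In this comparison 19 of the 26 genes lay wholly above and 1 wholly below, beside 19.9% and 20.6% of all tested genes.

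Lss, which closes squalene epoxide to lanosterol, had 108, 112 and 110 CPM without and 145, 144 and 147 CPM with isoliquiritigenin, with no overlap (log2 0.40 ± 0.05, adjusted p 5.06e-07). Cyp51 rose by log2 0.32 ± 0.05 (adjusted p 5.98e-05), Fdft1, the squalene synthase gene, by 0.28 ± 0.05 (0.000169), and Sqle by 0.25 ± 0.05 (0.000541). Dhcr7, which encodes the reductase of the last step to cholesterol in one branch, had 35.5, 37.7 and 36.4 CPM against 47.6, 48.3 and 50.8 CPM (log2 0.42 ± 0.07, adjusted p 5.98e-05). Sc5d, the desaturase before it, was at log2 0.13 ± 0.05 (adjusted p 0.0554), and the sterol isomerase gene Ebp at 0.20 ± 0.08 (0.0561). Both lay just above the threshold of 0.05 and were not called. Stard4, which carries cholesterol between membranes (0.15 ± 0.07, adjusted p 0.0897), and Soat1, which esterifies it for storage (0.06 ± 0.05, 0.419), did not pass.

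These 16 calls held without any 1 of the 6 libraries compared, under the other scaling, with no filter, by DESeq2, with the replicate block, with the numbering series as a term and in a fit of these groups alone. Within the second numbering series (the pair of enzalutamide co-culture libraries in it against the 3 isoliquiritigenin libraries) 17 genes were called, with Insig1 at log2 0.60, Mvd at 0.70, Tm7sf2 at 1.00 and Insig2 at -0.29 (adjusted p 0.00635). Beside this result, 7 of 9 tested fibroblast and mesenchymal markers were lower and 2 (Pdgfra, Pdgfrb) higher with isoliquiritigenin, and their summed level was 29240 to 30540 CPM against 36480 to 38040. Krt7 and Krt19 were lower and Kdr higher. The part of that difference, and of the mitochondrial share, in the sterol result was not tested. Fdft1 shares 18.3% of its exon bases with Ctsb on the opposite strand, and Ctsb rose too (log2 0.24, adjusted p 0.000715). Cyp51 shares 3.76% with Akap9 on the opposite strand, which rose as well (log2 0.25, adjusted p 0.0179), and Tm7sf2 shares 12.1% with Vps51 on the same strand, which was at log2 0.04 (adjusted p 0.747). Since the strand setting of the counting is not given, counts of these members are uncertain to that extent.

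**Figure D4:**
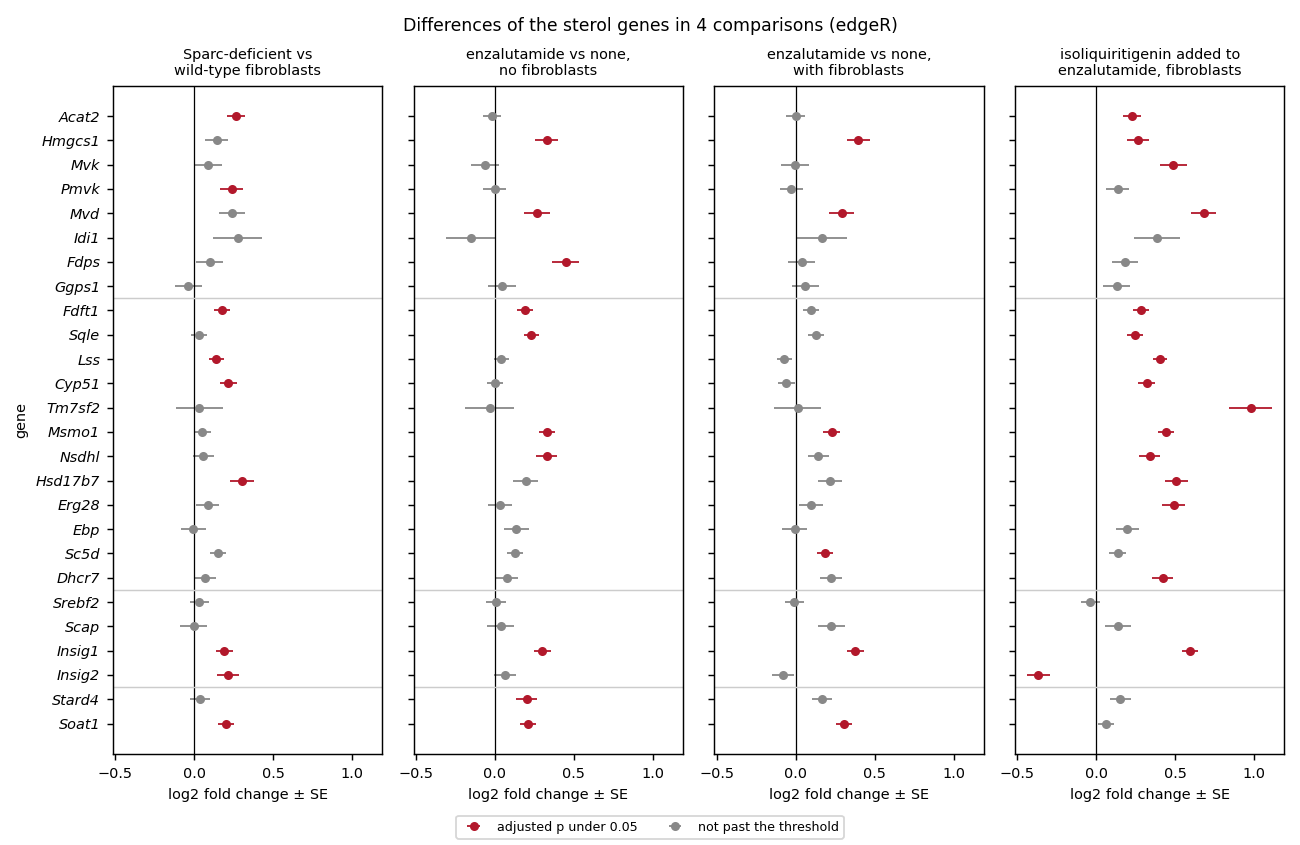
Points are log2 fold changes ± SE of the 26 genes in 4 comparisons, red where the adjusted p is under 0.05, with grey lines between mevalonate arm, squalene to sterol arm, SREBP2 control and transport. With isoliquiritigenin 15 points are red and above 0 and Insig2 is red and below 0.

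Set against the wild-type co-culture with neither agent, the cultures with both enzalutamide and isoliquiritigenin had 22 of the 26 genes higher and 1 lower, or 88.5%, where 39.1% of all tested genes were called (19.2% higher, 19.9% lower). Only Pmvk, Ggps1 and Srebf2 were not called. This comparison holds both agents at once and shares its libraries with the neighbouring comparisons, so its values are given beside theirs and not as a further line of evidence. Insig1 had 60.7, 62.8 and 65.9 CPM with wild-type fibroblasts against 118, 128 and 126 CPM, a 1.96-fold rise (log2 0.97 ± 0.05, adjusted p 2.89e-12), and Mvd 33.7, 34.8 and 31.9 CPM against 58.1, 70.5 and 68.6 CPM (1.96-fold, log2 0.97 ± 0.08, adjusted p 8.81e-10). Hmgcs1 rose by log2 0.66 ± 0.07 (adjusted p 1.38e-07), Msmo1 by 0.67 ± 0.05 (4.55e-10) and Hsd17b7 by 0.72 ± 0.07 (3.81e-08). All 12 genes from squalene to sterol and 6 of 8 of the mevalonate arm were higher. Insig2 was lower (log2 -0.45 ± 0.07, adjusted p 2.07e-05). Stard4 (log2 0.32 ± 0.07, adjusted p 0.000418), Soat1 (0.37 ± 0.05, 4.32e-06) and Scap (0.36 ± 0.08, 0.00144) rose here. The same 7 of 9 mesenchymal markers were lower and the same 2 higher (summed level 29240 to 30540 CPM, against 39390 to 41160), Krt7 and Krt19 were lower, and the part of these in the result was not tested.

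The wild-type co-culture lies wholly in the first numbering series and the isoliquiritigenin libraries wholly in the second, and with the series as a term 13 genes were called. Lost with that term were Mvk, Idi1, Fdps, Sqle, Cyp51, Nsdhl, Ebp, Insig2 (adjusted p 0.224), Scap and Soat1. Fdps (log2 0.22, adjusted p 0.0365) and Ebp (0.19, 0.0473) also lost their calls without wild-type replicate 3 (adjusted p 0.254 for Fdps and 0.2315 for Ebp) or isoliquiritigenin replicates 1 (0.137 to 0.177) or 3 (0.0924 to 0.106), and Ebp without wild-type replicate 1 (0.111).

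With enzalutamide, and without fibroblasts, 10 of the 26 genes were higher and 0 lower, or 38.5%, where 12.0% of all tested genes were called (6.84% higher, 5.19% lower). The question here is what enzalutamide does to T23 cells without fibroblasts. The median of the 26 genes was log2 0.10, beside 0.00 for all tested genes. Called genes were Hmgcs1, Mvd and Fdps of the mevalonate arm, Fdft1, Sqle, Msmo1 and Nsdhl of the arm from squalene to sterol, and Insig1, Stard4 and Soat1, with folds from 1.14 to 1.37. Msmo1 had 212, 226 and 222 CPM in T23 cells alone and 279, 287 and 263 CPM with enzalutamide (log2 0.33 ± 0.05, adjusted p 0.000183). For Insig1 the values were 70.3, 71.5 and 77.5 CPM against 95.0, 90.5 and 84.8 CPM (log2 0.30 ± 0.05, adjusted p 0.000674). Fdps had 17.1, 17.6 and 17.0 CPM against 24.0, 24.2 and 22.7 CPM, the largest difference of the 26 in this comparison (1.37-fold, log2 0.45 ± 0.09, adjusted p 0.00118). None of these groups overlapped, and in this comparison 13 of the 26 genes lay wholly above, beside 15.7% of all tested genes. Sqle rose by log2 0.23 ± 0.05 (adjusted p 0.00318) and Nsdhl by 0.33 ± 0.07 (0.00233).

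Hmgcs1 varied among treated libraries, at 154, 169 and 125 CPM against 118, 120 and 116 CPM in T23 cells alone (log2 0.33 ± 0.07, adjusted p 0.00473). Cyp51 was at 382 CPM ± 28.2 with and 382 ± 11.4 (SD, n = 3) without enzalutamide, and Acat2, Pmvk and Srebf2 likewise had log2 differences within 0.02 of 0 (SE 0.06 to 0.07). Genes next to each other in the pathway thus had different values. Fdps, Insig1, Msmo1, Nsdhl and Sqle kept their calls in all alternatives. The calls of Mvd (adjusted p 0.0346), Fdft1 (0.0174), Stard4 (0.0466) and Soat1 (0.0100) did not. Mvd was lost without any 1 of the 3 libraries of T23 cells alone or of enzalutamide replicates 1 and 3, Fdft1 without T23 replicates 1 or 3 or enzalutamide replicates 1 or 2, Stard4 without any 1 of these 6 except enzalutamide replicate 3, and Soat1 without T23 replicate 3 (adjusted p 0.0535 to 0.206 over these). Hmgcs1 and these 4 were also lost with only the 2 groups in the fit (adjusted p 0.0659 to 0.123). Without the library rich in ribosomal RNA 8 genes were called. Of 9 tested fibroblast and mesenchymal markers Col1a1, Col1a2 and Dcn were lower and Fn1 and Pdgfrb higher with enzalutamide (summed level 37740 to 39210 CPM, against 39900 to 41320), and the basal marker Trp63 and the endothelial marker Kdr were lower. The mitochondrial share was 1.88 to 4.06%, against 0.824 to 1.11%. The part of these in the result was not tested.

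With fibroblasts present, 6 of the 26 genes (23.1%) were higher with enzalutamide and 0 lower, where 7.18% of all tested genes were called (3.70% higher, 3.49% lower). The comparison assumes the same fibroblasts in both groups, which the labels leave unclear. Insig1 went from 60.7, 62.8 and 65.9 CPM to 82.5, 81.3 and 82.7 CPM (log2 0.38 ± 0.05, adjusted p 7.14e-05) and Hmgcs1 from 105, 96.8 and 110 CPM to 134, 145 and 131 CPM (log2 0.40 ± 0.07, adjusted p 0.00123), both without overlap. In this comparison 11 of the 26 genes lay wholly above, beside 13.1% of all tested genes. Soat1 rose from 151, 140 and 151 CPM to 173, 187 and 186 CPM (log2 0.31 ± 0.05, adjusted p 0.000467). Msmo1 (log2 0.23 ± 0.05, adjusted p 0.00743), Sc5d (0.19 ± 0.05, 0.0264) and Mvd (0.29 ± 0.08, 0.0267) were the others called. Replicates 2 and 3 of the treated group belong to the second numbering series, and with the series as a term, or with treated replicate 1 as the only treated library, 1 gene was called, Insig1 (log2 0.38 each, adjusted p 0.00852 and 0.0151). Sc5d was lost without any 1 of the 3 untreated libraries or of treated replicates 1 and 2, Mvd without untreated replicates 1 or 3 or treated replicates 1 or 2, and Msmo1 without treated replicate 2 (adjusted p 0.05005 to 0.170 over these). Without treated replicate 2, 3 genes were called. Of 9 tested fibroblast and mesenchymal markers Vim, Col1a1 and Col1a2 were lower and Pdgfrb higher (summed level 36480 to 38040 CPM, against 39390 to 41160), Krt19 and Kdr were lower, and the mitochondrial share was 1.55 to 2.71%, against 0.853 to 1.34%. The part of these in the result was not tested.

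Whether the response to enzalutamide differed with and without fibroblasts was tested as an interaction. Of the 26 genes 0 were called by edgeR, where 0.0221% of all tested genes were called (0.0147% higher, 0.00735% lower), and 1, Fdps, had an unadjusted p under 0.05 (log2 -0.41 ± 0.12, adjusted p 0.625). Fdps was at 23.6 CPM ± 0.832 with enzalutamide alone and at 20.3 ± 0.744 (SD, n = 3) with enzalutamide and fibroblasts. DESeq2 also called 0. Direct comparison of enzalutamide with and without fibroblasts called 0 of the 26 by edgeR and by DESeq2 (background 2.08%, with 1.14% higher and 0.941% lower), with 6 at an unadjusted p under 0.05. Without enzalutamide replicate 3, 2 genes were called, Hmgcs1 (log2 -0.24, adjusted p 0.0338) and Scap (0.34, 0.0245).

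With wild-type fibroblasts 0 of the 26 genes were called by edgeR against T23 cells alone, where 0.515% of all tested genes were called (0.257% higher, 0.257% lower). At an unadjusted p under 0.05 there were 4, and DESeq2 called 1, Insig1 (adjusted p 0.0369). Insig1 had 70.3, 71.5 and 77.5 CPM alone and 60.7, 62.8 and 65.9 CPM with fibroblasts (log2 -0.21 ± 0.05, adjusted p 0.0913 in edgeR). Leaving out the enzalutamide library with the ribosomal RNA, a member of neither group, its adjusted p was 0.0450. In a fit of these groups alone Insig1 (0.0279) and Hmgcs1 (log2 -0.19, 0.0334) were called. Insig1 and Hmgcs1 were lower in all 3 co-culture libraries than in all 3 of T23 cells alone. Sqle, Lss, Nsdhl and Sc5d were higher in all 3, so 2 of the 26 lay wholly below and 4 wholly above. Over all tested genes these shares were 9.85% and 10.6%.

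SPARC-deficient fibroblasts, against wild-type ones, came with small increases in 9 of the 26 genes and a decrease in 0, or 34.6%, where 11.5% of all tested genes were called (6.72% higher, 4.79% lower). This comparison asks what Sparc in the fibroblasts changes in the T23 libraries. The called genes were Acat2 and Pmvk, Fdft1, Lss, Cyp51 and Hsd17b7, Insig1 and Insig2, and Soat1, with folds from 1.10 to 1.23. Acat2 had 85.0, 81.4 and 88.0 CPM with wild-type and 105, 96.0 and 104 CPM with SPARC-deficient fibroblasts (log2 0.27 ± 0.06, adjusted p 0.00308). Cyp51 had 363, 359 and 373 CPM against 419, 422 and 431 CPM (log2 0.22 ± 0.05, adjusted p 0.00777). Hsd17b7 had 29.1, 30.2 and 29.2 CPM against 34.7, 36.1 and 38.6 CPM (log2 0.30 ± 0.08, adjusted p 0.00968). Insig2 was highest here among the 6 groups, at 97.1, 100 and 106 CPM against 81.2, 85.7 and 94.3 CPM (log2 0.21 ± 0.07, adjusted p 0.0478).

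Sqle, Msmo1 and Nsdhl, called with enzalutamide in T23 cells without fibroblasts, were at log2 0.03 ± 0.05 (adjusted p 0.781), 0.05 ± 0.05 (0.597) and 0.06 ± 0.07 (0.647) here. Whether the sets of genes differ between these comparisons was not tested. Of the 9 calls, Acat2 and Cyp51 held in all alternatives. Fdft1, Lss, Insig1, Insig2, Pmvk, Soat1 and Hsd17b7 each lost theirs without at least 1 library (adjusted p 0.0543 to 0.208). The calls that remained numbered 5 of the 9 without wild-type replicates 1 or 2 or SPARC-deficient replicate 1, 7 without wild-type replicate 3, 4 without SPARC-deficient replicate 2 and 3 without SPARC-deficient replicate 3. The luminal markers Krt7, Krt19 and Hoxb13, the basal marker Trp63 and, of 9 tested, the mesenchymal markers Col3a1 and Thy1 were also higher in this comparison (summed mesenchymal level 42770 to 45490 CPM, against 39390 to 41160), and the part of these in the sterol values was not tested.

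Against T23 cells alone, SPARC-deficient co-cultures had 7 of the 26 genes higher and 0 lower, where 9.74% of all tested genes were called (6.10% higher, 3.65% lower). Lss had 107, 108 and 107 CPM alone and 126, 125 and 131 CPM in co-culture (log2 0.25 ± 0.05, adjusted p 0.00102), and Sc5d 144, 148 and 144 CPM against 171, 161 and 177 CPM (log2 0.22 ± 0.05, adjusted p 0.00656). These held in all alternatives. Acat2 (log2 0.22, adjusted p 0.0127), Hsd17b7 (0.29, 0.0145), Fdps (0.29, 0.0306), Insig2 (0.24, 0.0330) and Fdft1 (0.16, 0.0471) each lost the call without at least 1 library (adjusted p 0.0597 to 0.219). Only 2 of the 7 remained without T23 replicate 1 or SPARC-deficient replicate 3, 4 without T23 replicate 3 or SPARC-deficient replicate 1, and 5 without T23 replicate 2 or SPARC-deficient replicate 2. Leaving out the enzalutamide library with the ribosomal RNA, a member of neither group, 11 genes were called. Insig1 was not called here (log2 -0.02 ± 0.05, adjusted p 0.874). Of 9 tested mesenchymal markers Col3a1, Fn1 and Thy1 were higher (summed level 42770 to 45490 CPM, against 39900 to 41320), as were Krt7, Krt19 and Trp63, while Kdr was lower, and the part of these in the sterol values was not tested.

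**Figure D5:**
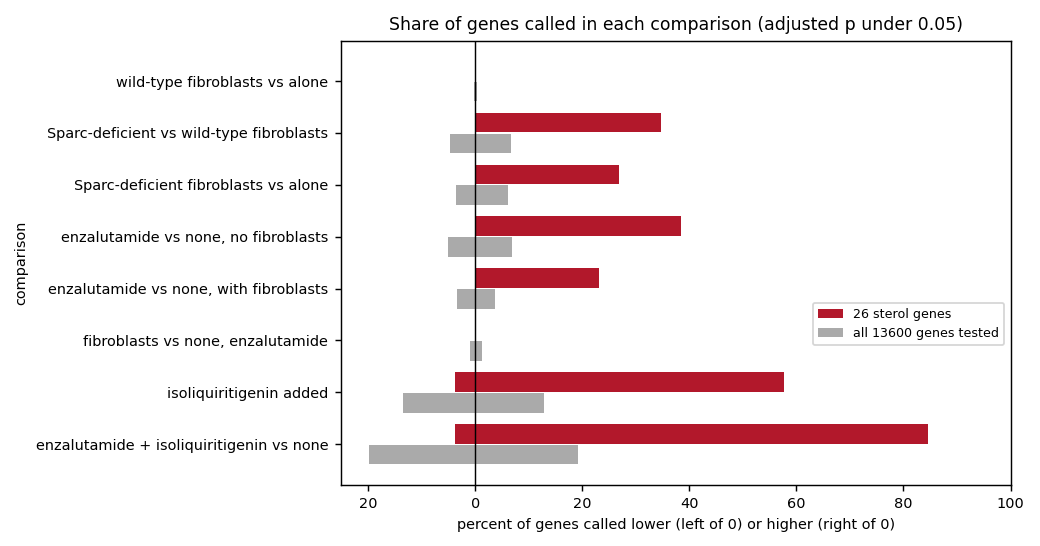
Red bars give the share of the 26 genes called higher (right) or lower (left) in each of 8 comparisons, grey bars the same share of all 13600 tested genes. The red bars reach 84.6% with both agents against none and 57.7% for isoliquiritigenin added, and stay at 0 for wild-type fibroblasts and for fibroblasts in the presence of enzalutamide.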

How the data were processed

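Libraries were made with a stranded poly(A) mRNA kit. Per the submitters' processing notes, the authors aligned to GRCm38, and the tools named are STAR 2.6.1d, featureCounts 2.0, cutadapt 2.9, bcl2fastq 2.20.0.422, FastQC 0.11.9 and DESeq2. The annotation release and whether counting used strand are not given in the sources used here. The deposited values are raw counts per gene. Symbols, exon lengths and coordinates came from GENCODE M21. Counts of 13600 genes that passed edgeR's filter (minimum count 10) entered edgeR 4.0.16 (R 4.3.3, limma 3.58.1) with TMM scaling and its quasi-likelihood test over all 18 libraries, with Benjamini-Hochberg adjustment over all tested genes and calls at adjusted p under 0.05. All p-values are two-sided. The alternatives were DESeq2 1.42.0 with its size factors, edgeR with RLE scaling, no filter, a replicate block, the numbering series as a term, only the groups compared, the ribosomal RNA gene left out, and each library left out. Genes without a symbol (260, with 0.0055% of counts) were kept. Data were simulated from the means, spread and sizes of all 18 libraries, with changes placed in the enzalutamide libraries without fibroblasts. Against T23 cells alone, the fit over 13429 genes called 93% of 100 genes changed 1.5-fold, 100% of 100 changed 2-fold and 10 of 13229 unchanged genes. Changed genes were drawn from those with a mean of at least 100 counts, and changes under 1.5-fold were not simulated. All 26 genes are named or counted in each comparison, and of other lists up to 3 called genes by smallest p. The genes, lists and tests were chosen with earlier results of these data known. The values of some genes of these lists are not reported here.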

Additional observations from a re-analysis of the deposited data

How the results depend on the processing

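No called difference changed sign under the alternatives run, while some differences near 0 that were not called did. The counts of called genes among the 26 were as follows. For wild-type fibroblasts against none (0 called) DESeq2 gave 1, only the groups compared gave 2, and leaving out a library gave 0 to 1. SPARC-deficient against wild-type fibroblasts (9) gave 5 with no filter and 3 to 11 without 1 library, and SPARC-deficient against none (7) gave 12 with only the groups compared and 2 to 11 without 1 library. Enzalutamide without fibroblasts (10) gave 5 with only the groups compared and 6 to 11 without 1 library. Enzalutamide with fibroblasts (6) gave 1 with the numbering series as a term, 1 with the first series only, an alternative chosen after seeing the data, and 3 to 8 without 1 library. Enzalutamide with against without fibroblasts (0) gave 0 to 2 without 1 library. Both agents against none (23) gave 13 with the numbering series as a term and 21 to 24 without 1 library, and isoliquiritigenin added (16) gave 16 to 19 over all alternatives. The interaction gave 0 throughout. The cause of these differences was not tested, beyond the fewer libraries of some fits. Over all genes the called numbers ran from 740 to 1820 for enzalutamide (1636), 743 to 2188 for SPARC-deficient against none (1325), 857 to 2085 for SPARC-deficient against wild-type (1566), 190 to 1423 for enzalutamide with fibroblasts (977), 5 to 541 for fibroblasts under enzalutamide (283), 11 to 336 for wild-type fibroblasts (70), 0 to 99 for the interaction (3), 2522 to 4225 for isoliquiritigenin added (3599) and 1849 to 5931 for both agents (5324).

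No pairing of libraries by replicate number was seen: in 0 of 15 pairs of groups were all correlations of same-numbered deviations over 0.1 (range -0.1441 to 0.0982). Weak pairing, or pairing limited to some genes, could not be seen in this way. With the replicate block the counts were 0 for wild-type fibroblasts, 7 and 6 for SPARC-deficient fibroblasts against wild-type and none, 9 and 6 for enzalutamide without and with fibroblasts, 0 for fibroblasts under enzalutamide, 16 for isoliquiritigenin added, 23 for both agents and 0 for the interaction. Where a lone library was left in a group, its spread was taken from the other groups. Depth did not limit detection of the 26 genes, whose smallest count was 58.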

Other observations

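Fatty acid synthesis, which the related factor SREBP1 controls, was followed by 14 genes, all tested. Of all tested genes 26.5% were called with isoliquiritigenin added. The shares were 12.0% for enzalutamide without and 7.18% with fibroblasts, and 11.5% for SPARC-deficient against wild-type fibroblasts. With isoliquiritigenin added 10 rose and 0 fell (median log2 0.23, beside 0.00 for all genes), among them Gpam, which starts glycerolipid synthesis (log2 0.35 ± 0.05, adjusted p 2.9e-05), Mid1ip1, which promotes acetyl-CoA carboxylase activity (0.37 ± 0.07, 0.000147), and Elovl6, a fatty acid elongase (0.27 ± 0.05, 0.00022). With enzalutamide and no fibroblasts 6 rose and 0 fell (median 0.15): Acaca, the acetyl-CoA carboxylase gene, went from 111 CPM ± 2.26 to 163 ± 4.62 (SD, n = 3; log2 0.55, adjusted p 7.52e-08), and the desaturase genes Scd2 (0.46, 1.53e-05) and Scd1 (0.52, 1.75e-05) rose too. These 6 named calls held in all alternatives. With fibroblasts present 5 rose with enzalutamide and 0 fell, of which Acaca (log2 0.33, adjusted p 0.000109) held in all alternatives, with 1 to 5 genes called over them. SPARC-deficient against wild-type fibroblasts had 3 higher and 0 lower, of which Lpin1 (log2 0.36, adjusted p 0.00228) and Scd1 (0.28, 0.00819) held in all alternatives.

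Of 16 genes of sterol uptake, egress and handling 14 were tested. With isoliquiritigenin added 3 rose and 0 fell (median log2 0.01), where 26.5% of all tested genes were called, namely Npc2, which binds cholesterol in lysosomes (log2 0.33 ± 0.05, adjusted p 7.25e-06), Nceh1, a cholesteryl ester hydrolase gene (0.34 ± 0.06, 6.99e-05), and Gramd1b, a cholesterol transfer gene (0.40 ± 0.09, 0.00238), all held in all alternatives. Npc1, the lysosomal partner of Npc2, rose with enzalutamide without fibroblasts (log2 0.30, adjusted p 0.000458). It was the only call of the 14 there, where 12.0% of all tested genes were called. Of 13 genes that activate SREBPs or degrade INSIG proteins and their targets, 1 rose and 2 fell with isoliquiritigenin added, with 0 to 4 called over the alternatives. Of 13 genes that use isoprenoids 1, Coq2, rose with isoliquiritigenin added (log2 0.25, adjusted p 0.0368), a call lost in 6 of 14 alternatives.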
